A study of Mus musculus with 10 samples.

Results

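CC and CXC chemokines and their receptors were described in sorted mouse retinal cells 3 days after optic nerve crush (ONC), an injury of the axons of retinal ganglion cells (RGCs). The genes were those whose symbol is Ccl, Cxcl, Ccr or Cxcr followed only by digits and an optional letter, which gave 51 of 53974 genes in the RNA-seq table, 35 ligands and 16 receptors. In the ATAC-seq comparison, which holds regions of open chromatin, 6 of 16600 regions lay within 1000 bp of an end of these genes. Adult C57BL/6 *Arid1a* fl/fl mice received AAV2-GFP (labelled WT, genotype Arid1a fl/fl) or AAV2-Cre (labelled cKO, genotype Arid1a del/del) into the vitreous 2 weeks before ONC. The samples are listed with an age of 8-10 weeks. Cells were sorted as DAPI-negative and Thy1.2-positive. RNA-seq had 3 libraries of each label and ATAC-seq had 2 of each. All groups carried the floxed alleles, an AAV2 vector and the injury, so no uninjured or uninjected retina was compared. The viruses used the CMV promoter, which is not restricted to neurons, and each sample pooled 4-5 retinas. In the mouse Thy1.2 also marks T cells, so the sort does not by itself exclude them.

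Chemokines are small secreted proteins that direct the movement of leukocytes. CC and CXC chemokines are named for the spacing of their first cysteines, and their receptors are seven-helix proteins coupled to inhibitory G proteins. Inflammatory chemokines such as CCL2, CCL5 and CXCL10 recruit monocytes and effector T cells to injured tissue, while homeostatic ones such as CXCL12, CXCL13 and CCL19 place lymphocytes and other cells in lymphoid and resting tissue. In the retina, microglia, Mueller glia and infiltrating leukocytes are known sources of chemokines.

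RNA is given as TPM (transcript abundance corrected for transcript length and scaled to a fixed total per library). The scaling removes the number of reads, and the depth of each library is therefore unknown. Values are listed in the order of replicates 1, 2 and 3, and "WT" and "cKO" below refer to the label of a library. The RNA of *Arid1a*, the targeted gene, was 18.8, 11.7 and 14.1 TPM in WT and 18.8, 27.9 and 25.0 TPM in cKO, which is not lower in the libraries labelled cKO (limma adjusted p = 0.274), so each direction rests on the labels. Markers of RGCs differed in level. *Thy1* was present at 51.9-129 TPM, *Isl1* at 51.9-104 TPM, *Gap43* at 24.3-67.9 TPM and *Nefl* at 5.47-20.6 TPM. *Pou4f2* was listed at 0 in 5 of 6 libraries, and 10 of 13 RGC markers passed the filter on low values. P-values measure the spread between these samples.

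Genes entered the test with 3 or more of the 6 libraries at a TPM of 1 or higher, as did 35 of the 51 genes (23 ligands and 12 receptors), and 0 of the 35 passed through libraries of 1 group only. No gene of the family passed an adjusted p of 0.05 in limma, and the lowest adjusted p was 0.124. Over all genes tested 0.0057% passed, a single gene. At an unadjusted p under 0.05, 18 of 35 were lower in cKO and 0 were higher, beside 6.45% lower and 11.9% higher over all 17555 genes tested. By sign alone, 30 of the 35 fold changes were below 0 and 5 above. In 12 genes every cKO library was below every WT library, which held for 7.18% of all genes, and in 0 tested genes every cKO library was above, which held for 18.7% of all genes. The median difference of the 35, cKO minus WT on the log2(TPM + 1) scale, was -0.92, beside 0.16 over all genes tested. The count of 18 became 8 without WT replicate 1, 6 without WT replicate 3, 9 without cKO replicate 2 and 11 without cKO replicate 3, where the share of all genes was 6.74%, 5.13%, 3.97% and 6.95%. The count of 12 became 24 without WT replicate 2 and 20 without cKO replicate 1, where the share of all genes was 11.7% and 9.17%. Unadjusted p stayed under 0.05 in all 12 alternatives for *Ccr7*, *Ccr8*, *Cxcr3*, *Ccl7* and *Cxcl10*, and for *Cxcr4* in the 11 in which it was tested (it did not reach a mean TPM of 5).

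**Figure D1:**
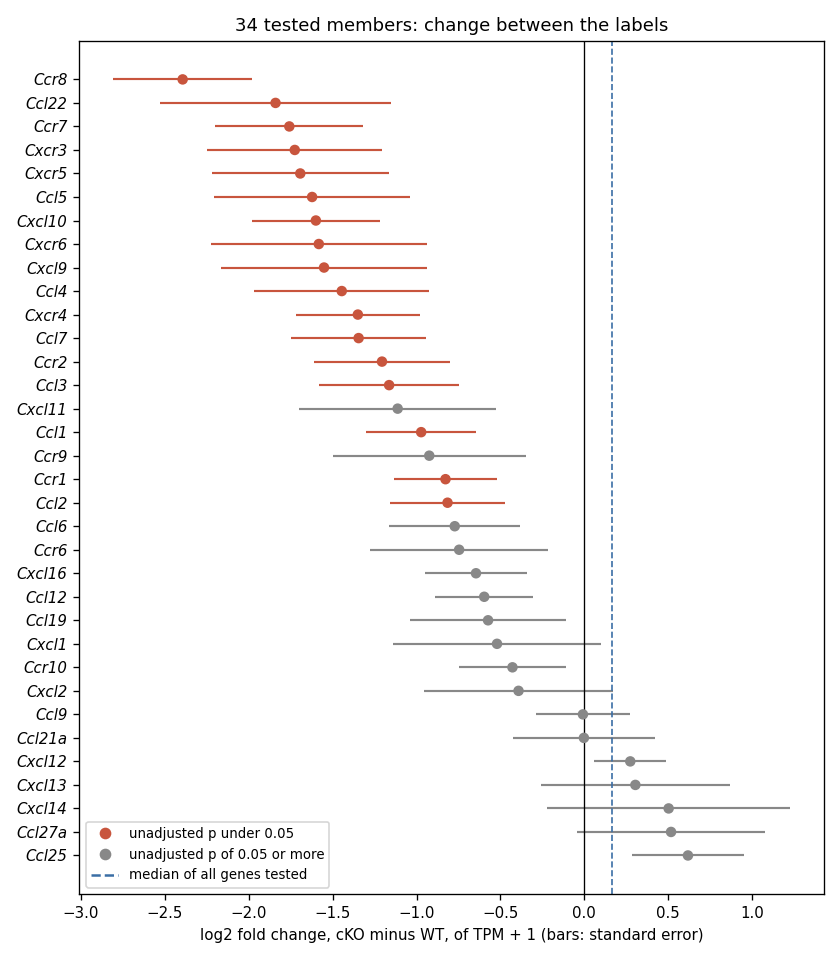
Difference between cKO and WT (log2 of TPM + 1) with its standard error for 34 of the tested genes, in order of the difference, with red for an unadjusted p under 0.05 and a dashed line at the median of all genes. All 11 receptors shown have values below 0, from -2.39 to -0.43, while the 23 ligands range from -1.84 to 0.62.

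All 12 tested receptors were lower in cKO by sign, 9 of 12 had an unadjusted p under 0.05, and 8 of 12 had groups that did not overlap, with a median of -1.37. The summed TPM of the 16 receptors was 401, 122 and 326 in WT and 101, 60.8 and 83.1 in cKO. The sums did not overlap, and WT replicate 2 was the lowest of its group. Among WT libraries the highest means were those of *Cxcr6*, *Ccr2*, *Ccr8*, *Cxcr3* and *Ccr7*, at 67.6 ± 46.9, 57.2 ± 26.2, 39.0 ± 12.6, 33.8 ± 19.4 and 29.5 ± 13.9 TPM (SD, n = 3). The difference between neighbours in that order was smaller than the larger of their 2 SDs. In cKO the first 2 places were taken by *Ccr2* (22.3 ± 3.72 TPM) and *Cxcr6* (17.9 ± 6.77 TPM), and *Ccr8* (6.79 ± 2.99 TPM) stood below *Cxcr3* and *Ccr7*.

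*Ccr8*, the receptor of CCL1, carried by regulatory and type 2 helper T cells, lies on chromosome 9 (120092133 to 120094906). It was at 50.1, 25.3 and 41.6 TPM in WT and at 8.83, 3.36 and 8.18 TPM in cKO. The groups were far apart, with the lowest WT library above the highest cKO library, and the WT mean was 5.74 times the cKO mean. The log2 difference was -2.39 ± 0.42 (SE, limma adjusted p = 0.124). *Ccr7*, which guides naive T cells and dendritic cells to lymph nodes, was at 37.6, 13.5 and 37.3 TPM in WT and at 9.74, 5.79 and 6.60 TPM in cKO. Here WT replicate 2 came close to the highest cKO library but did not reach it, and the log2 difference was -1.76 ± 0.44 (adjusted p = 0.138).

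*Ccr2*, the receptor of inflammatory monocytes, was at 77.5, 27.6 and 66.5 TPM in WT and at 23.9, 18.1 and 25.0 TPM in cKO. *Ccr1*, a receptor of monocytes and neutrophils, was at 4.26, 2.01 and 2.61 TPM in WT and at 1.23, 1.03 and 1.27 TPM in cKO. Neither overlapped between groups, and for *Ccr2* the gap between WT replicate 2 and the nearest cKO library was narrow beside the spread of WT. Their log2 differences were -1.21 and -0.83, each with an unadjusted p under 0.05.

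The remaining CC receptors showed overlapping groups. *Ccr6*, found on type 17 helper T cells and B cells, was at 12.1, 2.03 and 6.30 TPM in WT and at 3.60, 2.75 and 2.55 TPM in cKO. *Ccr9*, the gut-homing receptor of CCL25, was at 11.6, 1.60 and 5.95 TPM in WT and at 1.98, 1.68 and 3.16 TPM in cKO. In both, WT replicate 2 was below every cKO library while WT replicate 1 was the highest of the 6. *Ccr10*, a receptor of skin-homing T cells and antibody-secreting cells, had means of 2.49 and 1.66 TPM and a log2 difference of -0.43 ± 0.32. *Ccr3* and *Ccr4* did not pass the filter, with no library above 0.762 TPM.

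Each of the 4 tested CXC receptors had an unadjusted p under 0.05. *Cxcr3*, carried by activated T and NK cells, lies on chromosome X (101731535 to 101734147) and was at 51.9, 13.4 and 36.2 TPM in WT and at 10.7, 5.22 and 9.75 TPM in cKO. *Cxcr5*, which brings B cells and follicular helper T cells to CXCL13, was at 12.4, 4.39 and 14.0 TPM in WT and at 3.81, 0.840 and 2.61 TPM in cKO. *Cxcr4*, the receptor of CXCL12 on most leukocytes and on some neural cells, was lower in level, at 8.01, 3.78 and 7.12 TPM in WT and 2.28, 2.21 and 1.00 TPM in cKO. In these 3 genes the groups did not overlap, and the log2 differences were -1.73 ± 0.52, -1.69 ± 0.53 and -1.35 ± 0.37 (adjusted p = 0.168, 0.175 and 0.151). *Cxcr6*, carried by effector and resident T cells, was at 112, 18.4 and 72.7 TPM in WT and at 25.5, 12.3 and 16.0 TPM in cKO. WT replicate 2 was below cKO replicate 1, so its groups overlapped although its WT mean was 3.77 times its cKO mean. The neutrophil receptors *Cxcr1* and *Cxcr2* were at or near 0, *Cxcr1* at 0 in every library and *Cxcr2* at no more than 0.0653 TPM.

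**Figure D2:**
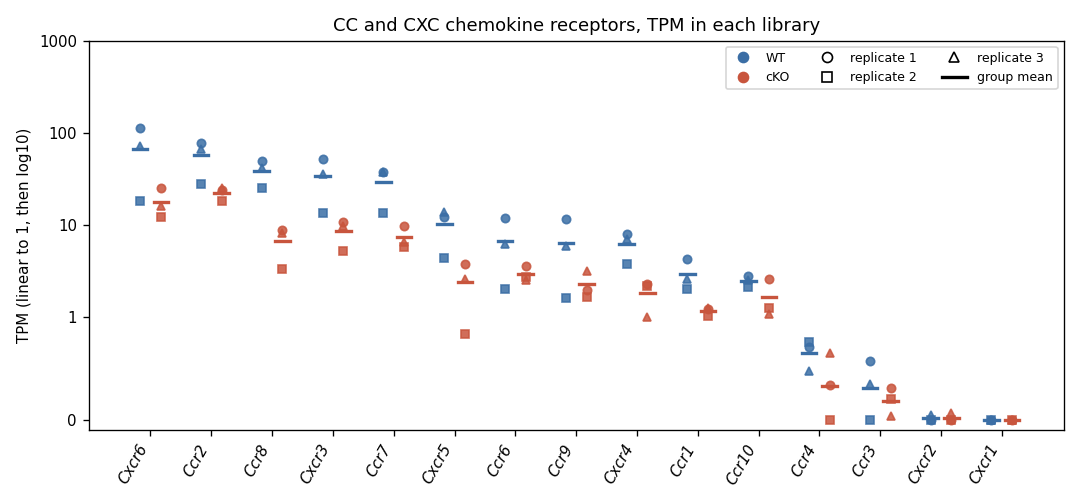
TPM of 15 receptor genes in each of the 6 RNA-seq libraries, with points for libraries and a bar for the group mean (axis linear to 1 TPM, then log10). In 7 of the 11 tested receptors shown every cKO library is below every WT library.

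All 3 ligands of CXCR3 were lower by sign, 2 with an unadjusted p under 0.05 and 1 with groups apart. *Cxcl10*, an interferon-induced attractant of T cells, was at 33.3, 13.5 and 24.7 TPM in WT and at 9.02, 6.05 and 5.51 TPM in cKO. Its groups did not overlap, and the log2 difference was -1.60 ± 0.38 (adjusted p = 0.129). *Cxcl9*, induced by interferon-gamma, was at 13.1, 3.73 and 12.0 TPM in WT and at 5.40, 0.727 and 2.13 TPM in cKO, with WT replicate 2 inside the cKO range and a log2 difference of -1.55. *Cxcl11* was at 6.34, 1.15 and 6.19 TPM in WT and at 2.28, 0.302 and 1.63 TPM in cKO. Its log2 difference was -1.11 (limma unadjusted p = 0.10). Alternatives in which that p fell under 0.05 included the replicate number as a block and leaving out WT replicate 2. The summed TPM of the 3 was 52.8, 18.4 and 42.9 in WT and 16.7, 7.08 and 9.26 in cKO, so the sums did not overlap.

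Among the CC ligands grouped with *Ccl5*, which act on receptors such as CCR1 and CCR3, 5 of 8 were tested, all 5 were lower by sign and 3 had an unadjusted p under 0.05, but 0 had groups apart. *Ccl5*, a product of effector T cells, had the highest WT mean of the ligands, although *Cxcl14* and *Ccl2* were above it in WT replicate 2. It was at 532, 122 and 278 TPM in WT and at 149, 57.1 and 70.8 TPM in cKO. *Ccl3*, made by activated microglia and macrophages, was at 144, 90.2 and 206 TPM in WT and at 102, 51.0 and 44.2 TPM in cKO. *Ccl4*, its close relative, was at 61.1, 30.6 and 63.1 TPM in WT and at 31.4, 20.5 and 7.93 TPM in cKO. In all 3 the value of cKO replicate 1 exceeded that of WT replicate 2, the only pair of libraries out of order. Their log2 differences were -1.62 ± 0.58, -1.16 ± 0.42 and -1.45 ± 0.52 (adjusted p = 0.213, 0.212 and 0.214). The gene models of *Ccl3* and *Ccl4* overlap in the RefSeq table, so the split of reads between them is uncertain.

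*Ccl6* and *Ccl9*, rodent ligands of CCR1, did not separate the groups. *Ccl6* was at 35.9, 29.1 and 41.9 TPM in WT and at 18.2, 35.6 and 12.6 TPM in cKO, with cKO replicate 2 inside the WT range. *Ccl9* was at 8.52, 5.44 and 8.11 TPM in WT and at 7.23, 6.60 and 7.76 TPM in cKO, a log2 difference of -0.01 ± 0.28. *Ccl11*, *Ccl24* and *Ccl26*, which attract eosinophils through CCR3, did not pass the filter.

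Of the 4 monocyte attractants that act on CCR2, 3 were tested and all 3 were lower by sign, 2 with an unadjusted p under 0.05. *Ccl7* was at 22.9, 20.6 and 21.3 TPM in WT and at 12.6, 9.51 and 3.90 TPM in cKO. Its WT libraries lay close together (21.6 ± 1.19 TPM, SD, n = 3) and above every cKO library, with a log2 difference of -1.35 ± 0.40 (adjusted p = 0.166). *Ccl2*, the main attractant of inflammatory monocytes, was at 107, 141 and 171 TPM in WT and at 115, 80.3 and 50.3 TPM in cKO. *Ccl12*, a mouse relative of *Ccl2*, was at 32.8, 39.0 and 46.7 TPM in WT and at 36.5, 21.5 and 21.2 TPM in cKO. For both, cKO replicate 1 was above WT replicate 1, and the log2 differences were -0.82 ± 0.34 and -0.60 ± 0.29. *Ccl2* kept an unadjusted p under 0.05 in only 3 of 12 alternatives, and the replicate block was among those in which it did not. The lowest WT library of both was replicate 1, whereas it was replicate 2 in all 12 tested receptors. *Ccl8* did not pass the filter.

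Ligands of the lymphocyte receptors CCR4 and CCR6 to CCR10 split by gene. *Ccl22*, a dendritic cell and macrophage ligand of CCR4, was at 18.4, 4.95 and 11.2 TPM in WT and at 3.71, 0.203 and 4.41 TPM in cKO. *Ccl1*, the ligand of CCR8, was at 3.70, 2.25 and 4.16 TPM in WT and at 1.63, 0.676 and 1.36 TPM in cKO. Neither overlapped between groups, and the log2 differences were -1.84 ± 0.69 and -0.97 ± 0.33 (adjusted p = 0.225 and 0.192). *Ccl25*, the ligand of CCR9, was at 12.5, 23.8 and 27.9 TPM in WT and at 27.8, 30.2 and 37.8 TPM in cKO. The highest WT library (27.9) just exceeded the lowest cKO library (27.8), so the groups overlapped, and its log2 difference of 0.62 ± 0.34 was the highest of the family (adjusted p = 0.369). *Ccl27a*, a ligand of CCR10, was at 6.91, 17.5 and 6.37 TPM in WT and at 15.5, 25.0 and 6.34 TPM in cKO, and *Ccl19*, a ligand of CCR7, at 5.12, 17.1 and 5.04 TPM in WT and 4.28, 4.86 and 5.55 TPM in cKO. In both genes the libraries of 1 group differed by more than the group means did. *Ccl21a* and *Ccl21b* belong to 1 set of near-identical mouse copies and *Ccl27a* to a different set, so the values of all 3 are uncertain. No library of *Ccl21a* was above 2.87 TPM, and *Ccl21b* was at 0 in every library. *Ccl28* did not pass the filter but had every cKO library (0.120, 0.186 and 0.175 TPM) above every WT library (0.0795, 0 and 0.0884 TPM), with an exact two-sided permutation p = 0.1, the smallest that 3 against 3 libraries can give. *Ccl17* and *Ccl20* did not pass the filter.

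Ligands of the neutrophil receptor CXCR2 were barely detected. Of the 5, *Cxcl1* and *Cxcl2* passed the filter, with no library above 5.45 TPM, and their log2 differences of -0.52 and -0.39 had groups that overlapped fully. *Cxcl3*, *Cxcl5* and *Cxcl15* did not pass the filter.

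Of the other CXC ligands, 4 of 5 were tested, 3 with values higher in cKO and 1 with a lower value, and 0 had an unadjusted p under 0.05. *Cxcl12*, a homeostatic ligand of CXCR4, was at 50.6, 62.7 and 46.5 TPM in WT and at 68.1, 57.3 and 67.5 TPM in cKO. *Cxcl13*, the B cell attractant that acts on CXCR5, was at 141, 43.3 and 219.9 TPM in WT and at 134, 113 and 168 TPM in cKO. *Cxcl14*, whose receptor is not settled, was at 52.8, 176 and 72.9 TPM in WT and at 368, 79.8 and 66.0 TPM in cKO. The groups overlapped in all 3, and the log2 differences of 0.27 ± 0.21, 0.30 ± 0.56 and 0.50 ± 0.72 were near or below their errors. That of *Cxcl13* was -0.36 without WT replicate 2, and that of *Cxcl14* was -0.27 without cKO replicate 1, which alone held 368 TPM. *Cxcl16* is the membrane-bound ligand of CXCR6. It was at 73.0, 88.7 and 117 TPM in WT and at 46.8, 49.4 and 83.7 TPM in cKO. Its log2 difference was -0.65 with overlapping groups (limma unadjusted p = 0.071). Alternatives in which that p fell under 0.05 included the replicate block, median-of-ratios scaling and leaving out WT replicate 1. With that scaling, and without that library, the groups of *Cxcl16* did not overlap. *Cxcl17* did not pass the filter.

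**Figure D3:**
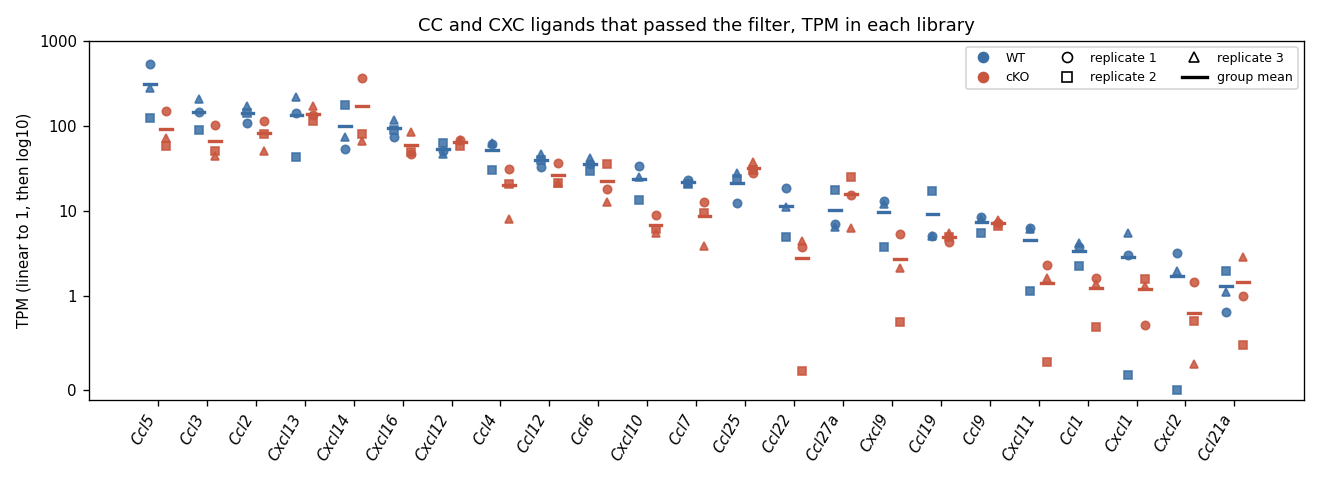
TPM of the 23 ligand genes that passed the filter in each of the 6 RNA-seq libraries, with points for libraries and a bar for the group mean (axis linear to 1 TPM, then log10). *Ccl5*, *Ccl2*, *Ccl3*, *Cxcl13* and *Cxcl14* hold the highest values, and the groups do not overlap in *Ccl1*, *Ccl7*, *Ccl22* and *Cxcl10*.

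Ligand and receptor were then set against each other within each library, as the log2 ratio of ligand to receptor (pseudocount 1), for 6 pairs chosen with the values known. The ratio of *Cxcl13* to *Cxcr5* was 3.41, 3.04 and 3.88 in WT and 4.81, 5.95 and 5.55 in cKO. That of *Cxcl12* to *Cxcr4* was 2.52, 3.74 and 2.55 in WT and 4.40, 4.18 and 5.09 in cKO. For both pairs every cKO library was above every WT library. The same was true of *Ccl1* and *Ccr8*, both lower in cKO, whose ratio was higher by 1.42 in cKO, with the larger difference in the receptor. For *Cxcl10* and *Cxcr3* the ratio differed by 0.13 with overlapping groups, and the ratios of *Cxcl16* to *Cxcr6* and *Ccl25* to *Ccr9* also overlapped. The exact two-sided permutation p of the 3 pairs that did not overlap was 0.1, the smallest this design allows, or 0.2 after adjustment over the 6 pairs, so none passed 0.05. The receptors of these 3 pairs were themselves lower with groups apart, so the ratios are not a separate result. No share over other gene pairs was computed.

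Chemokine genes sit in clusters on the chromosomes (GRCm38.p6, RefSeq). The receptor genes *Ccr9*, *Cxcr6*, *Ccr1*, *Ccr3* and *Ccr2* lie together on chromosome 9, where *Cxcr6*, *Ccr2* and *Ccr1* had an unadjusted p under 0.05, all lower, with log2 differences from -1.58 to -0.83. *Cxcl9*, *Cxcl10* and *Cxcl11* lie within 42.0 kb of chromosome 5 (92321331 to 92363296) and had a median of -1.55. The CXCR2 ligands lie on the same chromosome (90759298 to 90905938), where 2 of 5 were tested and 0 had an unadjusted p under 0.05. On chromosome 11 the cluster of *Ccl2*, *Ccl7*, *Ccl11*, *Ccl12*, *Ccl8* and *Ccl1* (82035577 to 82179812) had a median of -0.89 over 4 tested genes. The neighbouring cluster of *Ccl5*, *Ccl9*, *Ccl6*, *Ccl3* and *Ccl4* (83525778 to 83664683) had a median of -1.16, with values from -1.62 to -0.01, so neighbours within it differed from each other.

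Marker lists of leukocytes were summed and tested in the same libraries. All 18 T and NK cell markers were tested and lower by sign in cKO, 16 with an unadjusted p under 0.05, with a median of -2.06. None of the 18 was at 0 in every library, and their summed TPM ranged from 1263 to 3653 in WT and from 317 to 773 in cKO. *Trac*, a constant chain of the T cell receptor, was at 952, 334 and 771 TPM in WT and at 203, 79.2 and 199 TPM in cKO. As in the 12 tested receptors, WT replicate 2 was the lowest WT library, and cKO replicate 2 was the lowest of all. Of 17 myeloid and microglia markers, 16 were lower by sign and 8 had an unadjusted p under 0.05, with sums of 2977-4861 TPM in WT and 1373-2038 TPM in cKO. *Lyz2*, the lysozyme of monocytes and macrophages, had a log2 difference of -1.80. Of 6 B cell markers, 5 were tested, all lower by sign and 3 with an unadjusted p under 0.05, with sums of 30.3-109 TPM in WT and 9.05-19.5 TPM in cKO. Of 8 neutrophil markers 4 were tested and 0 had an unadjusted p under 0.05, with overlapping sums of 6.38-37.9 and 4.46-28.4 TPM, and *Ly6g* did not pass the filter. The part of these markers in the chemokine and receptor differences was not tested. In these bulk samples, fewer cells of a type and less RNA per cell cannot be told apart.

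Markers of other retinal cell types differed by list. All 11 rod and cone markers were higher in cKO with an unadjusted p under 0.05 and groups apart, with sums of 13856-19029 TPM in WT and 27477-52370 TPM in cKO. Because TPM is a share of each library, a higher share of these transcripts lowers that of others. With libraries scaled by the median of ratios, 20 of the 35 family members tested were lower at an unadjusted p under 0.05 and 0 were higher, and none of the 35 changed sign. Of all genes, 9.54% were lower at that p under this scaling, against 6.45% without it. Over all genes that scaling moved the share of lower among the genes with an unadjusted p under 0.05 from 35.1% to 55.6%, and the median from 0.16 to 0.01. The RGC markers had a median of 0.06, with 2 of 10 higher at an unadjusted p under 0.05. All 7 tested Mueller glia and astrocyte markers were lower by sign, 3 with an unadjusted p under 0.05, and of 5 tested endothelial and pericyte markers all were lower by sign and 1 had an unadjusted p under 0.05. Their part in the ligand values was not tested either.

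**Figure D4:**
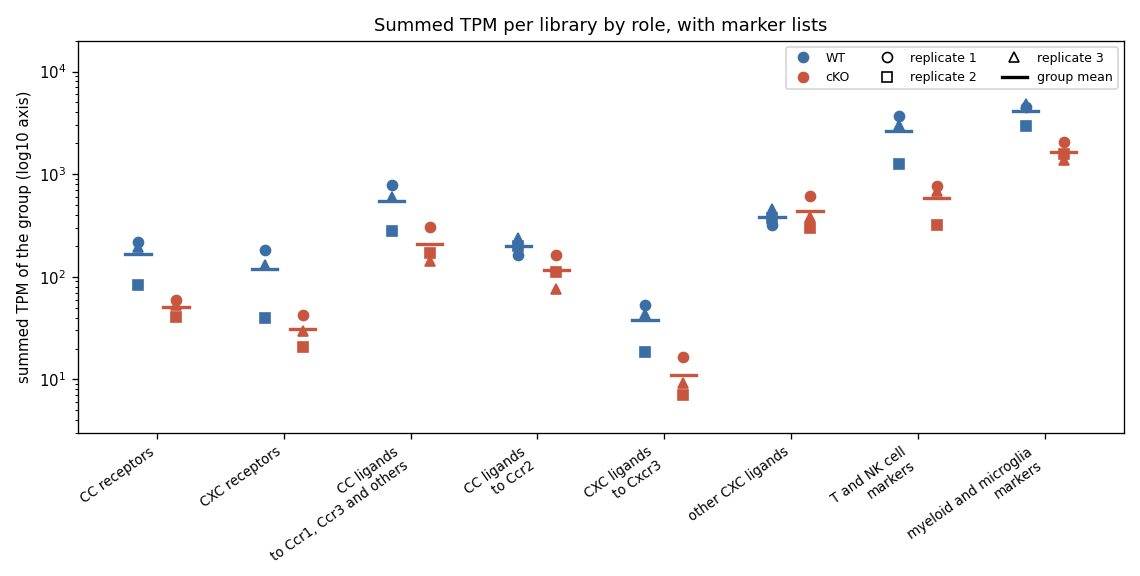
Summed TPM of receptor groups, ligand groups and 2 marker lists in each RNA-seq library (log10 axis), with points for libraries and a bar for the group mean. The sums of CC receptors (82.5-217 TPM in WT and 40.2-59.0 TPM in cKO), of CXCR3 ligands and of both marker lists do not overlap between groups. Those of CXC receptors (39.9-184 TPM in WT and 20.6-42.2 TPM in cKO) and of both CC ligand groups overlap. The sums of the other CXC ligands overlap too (318-456 and 300-618 TPM).

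Of 18 other chemokines, atypical receptors and chemokine-processing genes, 14 were tested, with an unadjusted p under 0.05 in 4 that were lower and 1 that was higher, and the median was -0.51. *Cx3cl1*, the neuronal ligand of the microglial receptor CX3CR1, was at 55.4, 77.7 and 51.7 TPM in WT and at 166, 110.4 and 89.0 TPM in cKO. All of its cKO libraries were above all WT libraries (log2 difference 0.95, adjusted p = 0.177). *Cmtm7*, a chemokine-like transmembrane gene, was at 44.9, 30.1 and 33.7 TPM in WT and at 14.1, 6.89 and 4.73 TPM in cKO. *Ccrl2*, an atypical receptor that binds chemerin, was at 41.5, 34.6 and 34.2 TPM in WT and at 24.4, 4.12 and 14.0 TPM in cKO. For both of these the cKO libraries were all below the WT libraries. *Dpp4*, a protease that trims chemokines, was at 26.2, 11.4 and 21.8 TPM in WT and at 9.51, 5.78 and 12.5 TPM in cKO, and *Cmtm6* had a log2 difference of -0.84, both with overlapping groups. *Ackr1*, an atypical receptor, had 0.60 with groups apart but no unadjusted p under 0.05.

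Among genes that carry signals from chemokine receptors, 39 of 41 listed were found and tested. An unadjusted p under 0.05 was found in 12 lower and 2 higher genes, and the median was -0.64. Among those with the lowest p-values were *Was*, an actin regulator of blood cells (-1.84), *Fgr*, a Src-family kinase of myeloid cells (-1.33), *Gnai2*, the inhibitory G protein subunit most used by leukocytes (-1.07), *Rac2*, a small GTPase of blood cells (-1.90), and *Gnb1* (1.44). *Gnb1* encodes a G protein subunit that is also part of rod transducin and was the only one of these that was higher in cKO, at 2799.6, 5124 and 5969 TPM against 1528, 1363 and 2054 TPM in WT. *Gnai2* was at 46.2, 61.5 and 54.3 TPM in WT and at 21.3, 24.6 and 29.6 TPM in cKO, and here WT replicate 2 was the highest library. None of the lists held a gene with an adjusted p under 0.05.

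Regions of open chromatin were found at a smaller share of these genes than of all genes. Of 51 genes, 6 had a region within 1000 bp of an end, 11.8% (Wilson 95% interval 5.51-23.4%), beside 23.9% of the 38185 genes with a position. The share with a peak near an end was 13 of 51 in WT replicate 1, 7 in WT replicate 2, 5 in cKO replicate 1 and 6 in cKO replicate 2, that is 25.5%, 13.7%, 9.80% and 11.8%. Over all genes with a position these shares were 34.1%, 28.5%, 10.5% and 11.4%, so the family was near all genes in the cKO libraries. Of the 51, 4 had a peak in both WT libraries, 2 in both cKO libraries and 29 in none. Of the 18 genes with lower RNA at an unadjusted p under 0.05, 11 had no peak in any library and 2, *Ccl1* and *Cxcr4*, had a region of the comparison. No share over all genes was computed for peaks in both libraries of a group or in none, so these counts are not read as particular to the family. *Ccr2*, *Ccr8*, *Cxcr3*, *Ccl3*, *Ccl4*, *Ccl5* and *Cxcl9* were among those without a peak within 1000 bp.

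The deposited comparison gives group means of normalized reads with no replicate values, so its differences carry no error. Of the 6 regions, 3 were lower in cKO by at least 1 on the log2 scale and 0 were higher, beside 90.3% lower and 1.38% higher of 7543 regions within 1000 bp of a gene end. The median difference of the 6 was -1.27, beside -2.52 over those 7543 regions. The same 3 had a peak in both WT libraries, beside 92.3% of the 7543, and 0 had a peak in both cKO libraries, beside 2.27%. With 6 regions, a share of 3 has a Wilson 95% interval of 18.8-81.2%.

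At *Cxcr4* the region (chr1:128592130-128593140, GRCm38) covers the gene start, had group means of 4.82 in WT and 2.99 in cKO on the log2 scale, a difference of -1.83, and held a peak in both WT libraries and neither cKO library. For *Ccl25* the region at the start (chr8:4324585-4325536) went from 5.46 to 3.34, a difference of -2.12, with peaks in both WT libraries and neither cKO library. The region also covers the start of *Elavl1*, which is read from the opposite strand, and the signals of the 2 starts cannot be told apart. The region near *Ccr10* (chr11:101170549-101172128) had 6.03 and 2.40, a difference of -3.63. It lies outside the gene (101172998 to 101175443), near an end that could not be named as start or far end. It covers the start of *Plekhh3*, and *Ccr10* RNA overlapped between groups.

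The other 3 regions had little signal in either group. At *Cxcl12* the region (chr6:117167066-117167629), 906 bp from the start, had 3.01 and 2.31, with a peak in WT replicate 2 and cKO replicate 2. At *Cxcl14* the region (chr13:56296089-56296791), 20 bp from the start, had 3.58 and 3.01, with a peak in WT replicate 1 and cKO replicate 1. At *Ccl1* the region (chr11:82179864-82180366), 52 bp from the start, had 2.46 and 2.94, a difference of 0.48, with a peak in WT replicate 1 and cKO replicate 2. The RNA difference and the region difference had opposite signs at *Ccl1*, *Ccl25*, *Cxcl12* and *Cxcl14*, that is at 4 of the 6 genes, and the same sign at *Cxcr4* and *Ccr10*. Of all regions near a gene end 90.3% were lower in cKO by at least 1, and the median RNA difference of all genes was 0.16. The share of opposite signs over all genes was not computed, so this count is not read as a result about the family. The RNA differences of *Cxcl12* and *Cxcl14* were near or below their errors. *Cxcl10* had a peak near its start in WT replicate 1 alone (chr5:92348463-92348756), and *Ccr7* had 1 near each end in WT replicate 1 alone.

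**Figure D5:**
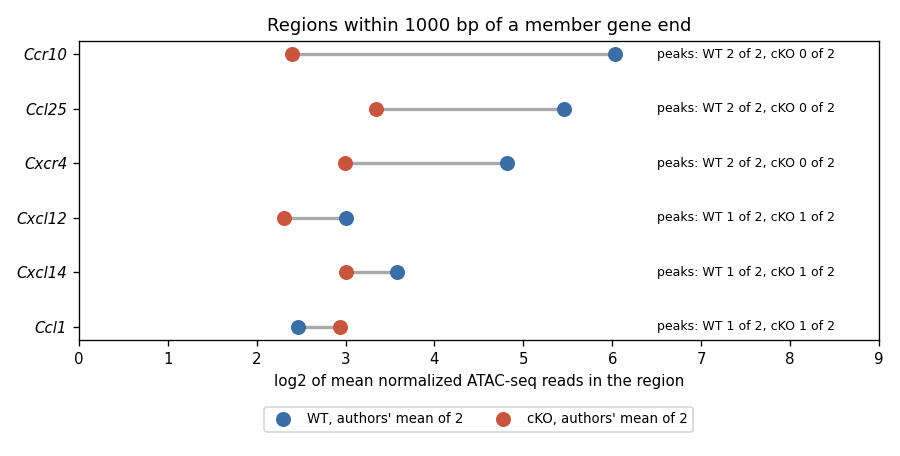
Group means of normalized ATAC-seq reads (log2) in WT and cKO for the 6 regions within 1000 bp of an end of a chemokine or receptor gene. The regions near *Ccr10*, at *Ccl25* and at *Cxcr4* have differences of -3.63, -2.12 and -1.83, and that at *Ccl1* has 0.48.

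The 250 bases before the start are shown for *Cxcr4*, *Ccl25* and *Ccl1*, whose regions reach into them, and for *Cxcl10*, which was chosen after its values were seen as the ligand with the lowest p (RefSeq, GRCm38.p6, 5′ to 3′ on the strand of the gene). Capitals mark matches on either strand to the core of the interferon-stimulated response element (GAAA repeated after a gap of 2 bases), the gamma-activated site TTCNNNGAA, or a form of the NF-kB site (GGGA and TTCC with 2 bases between them).
Cxcr4 (chr1:128592300-128592549, minus strand): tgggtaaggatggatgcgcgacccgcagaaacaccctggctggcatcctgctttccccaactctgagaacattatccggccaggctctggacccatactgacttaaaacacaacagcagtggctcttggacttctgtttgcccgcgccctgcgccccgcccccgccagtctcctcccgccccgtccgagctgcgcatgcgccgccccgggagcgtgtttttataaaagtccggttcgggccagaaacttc
Ccl25 (chr8:4324960-4325209, plus strand): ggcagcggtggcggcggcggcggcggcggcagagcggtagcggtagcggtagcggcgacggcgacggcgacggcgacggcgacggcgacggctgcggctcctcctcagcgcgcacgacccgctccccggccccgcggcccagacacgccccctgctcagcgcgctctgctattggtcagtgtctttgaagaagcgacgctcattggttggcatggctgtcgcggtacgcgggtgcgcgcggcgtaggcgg
Ccl1 (chr11:82179813-82180062, minus strand): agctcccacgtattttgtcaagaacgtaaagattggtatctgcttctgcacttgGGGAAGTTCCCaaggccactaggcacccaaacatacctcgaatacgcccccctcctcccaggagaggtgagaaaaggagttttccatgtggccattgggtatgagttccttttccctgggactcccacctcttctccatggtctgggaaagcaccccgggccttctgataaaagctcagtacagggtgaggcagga
Cxcl10 (chr5:92348890-92349139, minus strand): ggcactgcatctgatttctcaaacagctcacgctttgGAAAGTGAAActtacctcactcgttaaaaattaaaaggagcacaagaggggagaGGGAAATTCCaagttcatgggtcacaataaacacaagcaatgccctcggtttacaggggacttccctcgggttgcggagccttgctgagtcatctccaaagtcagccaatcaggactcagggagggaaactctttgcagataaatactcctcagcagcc

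All 250 bases of *Cxcr4* and *Ccl25* and 199 of the 250 of *Ccl1* lie inside their regions. The first 2, with peaks in both WT libraries, are richer in G and C (61.2% and 74.8%) and hold 19 and 45 CpG dinucleotides, while *Ccl1* and *Cxcl10* have 52.8% and 48.0% and 5 each. Neither *Cxcr4* nor *Ccl25* holds any of the 3 motifs here. At *Cxcl14*, whose region also reaches into the window, the bases before the start in the promoter table lie inside the gene in the gene table, so they may be transcribed and are not printed. They hold the response element core at -172 and the gamma-activated site at -191. *Ccl1* holds the NF-kB form on both strands, overlapping, at -196 and -195 from the start, and *Cxcl10* holds the response element core at -213 and the NF-kB form at -159. Over all 27025 promoters of 300 bases, 3.49% hold the response element core, 8.47% the gamma-activated site and 1.43% the NF-kB form. Of the 51 genes 36 had a promoter in that table (70.6%), too few to read a share for the family, and among them 3, 3 and 6 held the motifs. The 6 with the NF-kB form were *Ccl1*, *Ccr3*, *Cxcl1*, *Cxcl2*, *Cxcl3* and *Cxcl10*, of which *Cxcl1*, *Cxcl2* and *Cxcl3* are tandem relatives. A match is a run of letters and not a site shown to be bound.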

How the data were processed

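There were 3 WT and 3 cKO libraries of RNA-seq, by their labels, and 2 of each of ATAC-seq. The authors quantified transcripts with Salmon 1.0.0, summed them to genes with tximport on GENCODE, and deposited TPM values. The authors aligned ATAC-seq reads with Bowtie2 2.3.5.1, and MACS2 2.2.5 is named in the submitters' processing notes. The deposited comparison, made with DiffBind, gives a group mean of normalized reads on the log2 scale, and peak lists give positions per library, on GRCm38. Columns of the authors' own comparisons (fold changes, p-values and false discovery rates from DESeq2 1.26.0 and DiffBind) were not used.

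The 17555 genes with 3 or more libraries at a TPM of 1 or higher entered limma 3.58.1 (R 4.3.3, trended empirical Bayes) on log2(TPM + 1). P-values were adjusted over all of them by Benjamini-Hochberg, with a threshold of 0.05. The added 1 makes differences of low genes smaller than their ratios. The fit was tested on simulated data. Deviations from the group mean correlated across genes at 0.334, 0.101 and 0.425 for same-numbered libraries of replicates 1, 2 and 3. Differently numbered libraries ranged from -0.386 to 0.193, and the highest, WT replicate 1 with cKO replicate 2, exceeded the same-numbered value of replicate 2. The labels name no pairing, so the replicate number was used as a block in an alternative only. Regions were matched to gene ends within 1000 bp with RefSeq positions, GRCm38.p6, and promoter sequences came from RefSeq. That gene table has no strand, so the strand came from the promoter table and both ends were used. Wilson 95% intervals cover counting error only. Python 3.11.15 with pandas 2.3.3 and matplotlib 3.10.9 was used.

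The family, the lists of other genes and markers, and the tests were chosen with earlier results of these data known. Values in every library are given for family members with a mean of at least 5 TPM in a group, an unadjusted p under 0.05 or groups apart, and *Ccl28* was among these. Some of these genes are not reported here, though counts include them. Of the other pathway lists genes among the 6 lowest p-values are named, and of the marker lists some of the most abundant genes. *Pou4f2* and *Ly6g* are named as low markers. Alternatives tried were median-of-ratios scaling, a pseudocount of 0.1, no filter or a filter at a mean TPM of 5, the replicate block, no trend, each library left out in turn, gene ends of 3000 bp, a log2 difference of at least 2, and a reciprocal overlap of 50%.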

Additional observations from a re-analysis of the deposited data

How the results depend on the processing

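No family member passed an adjusted p of 0.05, and none was higher at an unadjusted p under 0.05, under any alternative. The 18 members lower at an unadjusted p under 0.05 became 13-20 under the other settings and 6-22 when 1 library was left out, while the share of all genes went from 6.45% to 4.06-9.54% and 3.97-7.90%. The 13 is of 25 members with a mean TPM of at least 5. The replicate block gave 19, with *Cxcl11* and *Cxcl16* gained and *Ccl2* lost, and changed no call at the adjusted threshold. The 12 members with groups apart became 12-24, and the median difference of -0.92 became -1.31 to -0.79, when 1 library was left out. The lowest adjusted p with the block was 0.0585. Of 410 values of single genes under the alternatives, 400 kept their direction. The 10 that reversed, all on leaving out 1 library, belong to 6 genes with differences inside their error: *Ccl9* (-0.19 to 0.10), *Ccl21a* (-0.39 to 0.30), *Cxcl1* (-1.23 to 0.0060), *Cxcl2* (-0.99 to 0.035), *Cxcl13* (-0.36 to 0.80) and *Cxcl14* (-0.27 to 1.00). With gene ends of 3000 bp, 9 members had a region, 5 regions were lower by at least 1 and 5 had a peak in both WT libraries, against 3 and 3 at 1000 bp, since more regions were counted. No paired analysis was possible because, for the open chromatin regions, each group has a single pooled value. Depth is unknown, so a low TPM cannot be given a counting error.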
